A study of Rattus norvegicus with 16 samples.

Results

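The annexins and 2 of their S100 binding partners were followed in rat microglia, with 8 annexin genes (Anxa1, Anxa2, Anxa3, Anxa4, Anxa5, Anxa6, Anxa7 and Anxa11) and 2 S100 genes (S100a10 and S100a11), 10 of 21842 gene symbols in all. Anxa6 was selected on its level, which was higher in irradiated than in sham libraries, so that difference is described here and not tested. The other 9 genes were taken as family members or binding partners of the annexins, with earlier results of these data known. Each symbol stood on 1 gene ID, and 10 of 10 passed the filter on low counts. Whole brains of male Wistar (Hsd/Cpb:WU) rats were dissociated mechanically in the cold, and microglia were sorted by a CD11b-high, CD45-intermediate gate on live cells, those that exclude DAPI. The 4 groups, of 4 libraries each, were rats given 14 Gy of X-rays and LPS (lipopolysaccharide, a bacterial cell wall component that sets off innate immune responses), rats given 14 Gy and PBS (the saline vehicle), sham-irradiated rats given LPS, and sham-irradiated rats given PBS. PBS or LPS was injected into the peritoneum 6 weeks after the irradiation or sham procedure. The labels used here state neither an LPS dose nor an age of the rats nor how long after the injection sorting took place. No label says whether each library came from its own rat, so the p-values below measure the spread between libraries.

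Annexins are cytosolic proteins that attach to negatively charged phospholipids, above all phosphatidylserine, when calcium rises, and they act in vesicle traffic, membrane repair and the link between membrane and actin. S100A10 binds annexin A2 in a stable complex that holds AHNAK and plasminogen at the cell surface, and S100A11 binds annexin A1 and other annexins. Annexin A1 is known as a mediator induced by glucocorticoids that acts on formyl peptide receptors of leukocytes, and annexin A3 has been used as a marker of rat microglia.

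Libraries held 14309458 to 62745496 counts. Levels are CPM, reads of a gene scaled to a common library total, with TMM factors applied, and a gene was called changed where the edgeR quasi-likelihood test, with Benjamini-Hochberg adjustment over 13608 genes, gave an adjusted p under 0.05. The fewest reads behind any value of these 10 genes were 33, for S100a11 in sham LPS replicate 1. Transcript lengths were not used, so levels of different genes are not compared. The summed level of 8 microglial markers was 14101.5 to 18384.3 CPM in irradiated LPS, 19942.9 to 25273.4 CPM in irradiated PBS, 34587.6 to 38649.0 CPM in sham LPS and 43789.7 to 47078.7 CPM in sham PBS libraries, with Siglech under 0.5 CPM on average in each group. The sort gate can also hold other myeloid cells, and 7 border-associated macrophage markers summed to 1140.3 to 1570.6 CPM in irradiated LPS, 777.9 to 997.9 CPM in irradiated PBS, 304.6 to 575.4 CPM in sham LPS and 302.4 to 338.3 CPM in sham PBS libraries. The 8 monocyte markers summed to 606.7 to 1014.0 CPM in irradiated LPS, 425.6 to 505.3 CPM in irradiated PBS, 291.3 to 401.0 CPM in sham LPS and 150.5 to 225.4 CPM in sham PBS libraries. The 7 T and NK cell markers summed to 156.2 to 305.7 CPM in irradiated LPS, 70.4 to 137.5 CPM in irradiated PBS, 8.13 to 51.7 CPM in sham LPS and 10.1 to 14.5 CPM in sham PBS libraries. The macrophage, monocyte and T and NK cell sums were higher in irradiated libraries, as most annexins below were, while the microglial sum was lower, and the part of either in the annexin differences was not tested. In bulk RNA of this kind, a change in the number of cells of a type cannot be told apart from a change in RNA per cell. Both irradiated libraries numbered 1 held the most neuronal marker RNA of their groups (80.4 CPM with LPS and 55.3 CPM with PBS, against 7.62 to 32.0 CPM in the other 14 libraries).

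Promoters are shown for the 3 genes whose first 250 bases upstream of the annotated start held a TATA box, an AP-1 motif or an NF-kB motif. RefSeq (build GRCr8) gave a promoter for 8 of the 10 genes. Anxa6 and S100a10 are named only. In the sequences below, given 5′ to 3′ on the gene's strand and ending at the base before the start, capitals mark a TATA box (TATAAA) in Anxa1, an AP-1 motif (TGANTCA) and a TATA box in Anxa2, and an NF-kB motif (GGGA, any 2 bases, TTCC) in Anxa4.
Anxa1, chr1:227303733-227303982, minus strand: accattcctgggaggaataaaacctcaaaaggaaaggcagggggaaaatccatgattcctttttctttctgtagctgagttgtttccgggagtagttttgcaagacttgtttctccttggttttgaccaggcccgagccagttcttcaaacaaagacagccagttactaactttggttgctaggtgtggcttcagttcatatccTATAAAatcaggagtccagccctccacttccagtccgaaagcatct
Anxa2, chr8:78986002-78986251, plus strand: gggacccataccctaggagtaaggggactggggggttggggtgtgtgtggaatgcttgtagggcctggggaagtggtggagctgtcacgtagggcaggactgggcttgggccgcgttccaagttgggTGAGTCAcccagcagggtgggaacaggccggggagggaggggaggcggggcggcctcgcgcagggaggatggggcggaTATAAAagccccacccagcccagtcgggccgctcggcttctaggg
Anxa4, chr4:120798514-120798763, minus strand: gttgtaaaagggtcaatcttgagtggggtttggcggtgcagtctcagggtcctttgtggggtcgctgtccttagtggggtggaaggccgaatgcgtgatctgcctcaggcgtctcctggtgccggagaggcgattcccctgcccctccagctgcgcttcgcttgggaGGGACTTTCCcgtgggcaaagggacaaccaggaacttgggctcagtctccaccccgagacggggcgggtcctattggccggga
The TATA box lay 46 to 41 bases before the start in Anxa1 and 45 to 40 bases before it in Anxa2, and it was found in 12.9% of 33469 rat promoters of the same length. The AP-1 motif of Anxa2 lay 123 to 117 bases before the start, and 6.34% of promoters held one. The NF-kB motif of Anxa4 lay 83 to 74 bases before the start and was found in 1.08% of promoters. Both strands were searched, and no base of the marked motifs lay in more than 1 of them. The GC box (GGGCGG) stood in 6 of the 8 promoters, those of Anxa2, Anxa3, Anxa4, Anxa5, Anxa11 and S100a11, against 30.5% of all promoters. A PU.1 core (GAGGAA), named for a transcription factor of myeloid cells, stood in those of Anxa1, Anxa3 and Anxa7, against 23.3% of all. A p53 half-site, searched because radiation activates p53, stood in that of Anxa1 alone of the 8, 148 to 139 bases before the start, against 6.64% of all. The motifs were chosen after the promoters had been read, and a match describes letters only.

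Irradiation without LPS, 6 weeks before the PBS injection, came with 4.15- to 6.99-fold more RNA of Anxa1, Anxa2, Anxa4, Anxa5 and S100a11, and slightly less of Anxa3. In irradiated PBS against sham PBS libraries, 5 of the 9 tested genes were called higher and 1 was called lower, where 11.5% of all genes tested were called higher and 9.91% lower. The median log2 change of the 9 was 2.05, and that of all genes was -0.00461. For 6 of the 9 every irradiated library was above every sham library, for 1 every irradiated library was below, and 2 overlapped. Over all genes, 13.9% were without overlap and higher, and 12.9% were without overlap and lower.

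Anxa5, the phosphatidylserine binder used as a probe of dying cells, had 60.5, 58.6, 55.5 and 51.9 CPM in irradiated PBS libraries, against 7.30, 7.03, 10.0 and 7.97 CPM in sham PBS libraries. The groups lay far apart, and the log2 change was 2.81 ± 0.21 (SE, 6.99-fold, edgeR adjusted p = 6.27e-08). Anxa4, an annexin of Golgi, plasma and nuclear membranes in epithelia, had 138.7, 134.1, 118.7 and 97.7 CPM in irradiated PBS libraries, against 25.9, 29.5, 33.1 and 29.4 CPM in sham PBS libraries. Its lowest irradiated library was still well above the highest sham library, and its log2 change was 2.05 ± 0.16 (SE, 4.15-fold, edgeR adjusted p = 7.27e-08).

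Anxa2, which forms the complex with S100A10, had 79.6, 71.3, 67.2 and 68.0 CPM in irradiated PBS libraries, against 10.2, 9.97, 13.3 and 20.1 CPM in sham PBS libraries. The irradiated libraries were tightly grouped, with sham replicate 4 the highest of its group, and the log2 change was 2.41 ± 0.32 (SE, 5.32-fold, edgeR adjusted p = 6.71e-05). Anxa1 had 120.5, 113.9, 104.2 and 86.3 CPM in irradiated PBS libraries, against 20.9, 21.4, 22.5 and 13.8 CPM in sham PBS libraries. Replicate 4 was the lowest in both groups, and the log2 change was 2.43 ± 0.44 (SE, 5.40-fold, edgeR adjusted p = 0.00117). RefSeq lists 1 Anxa2 pseudogene, and how the authors' counting treated reads shared with it is not stated in the labels.

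Anxa6, the annexin of late endosomes that binds membranes rich in cholesterol, had 95.6, 84.7, 66.4 and 79.1 CPM in irradiated PBS libraries, against 14.8, 10.8, 15.2 and 12.4 CPM in sham PBS libraries. It was chosen by these values, so the 6.11-fold difference (log2 2.61) stands as a description. With LPS it had 95.3, 67.6, 80.0 and 81.3 CPM in irradiated libraries, against 9.35, 11.0, 8.60 and 11.2 CPM in sham libraries, 8.05-fold (log2 3.01), which is likewise not tested.

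Anxa3 had 2543.6, 2810.8, 3209.1 and 2923.1 CPM in irradiated PBS libraries, against 3623.7, 3458.1, 3625.6 and 3629.3 CPM in sham PBS libraries. It was the only one of the 9 tested genes called lower, by a small step (log2 -0.32 ± 0.10 SE, edgeR adjusted p = 0.0345). The call was lost when any one of 7 libraries was left out (irradiated PBS 1, 2 or 4, or any sham PBS library; adjusted p up to 0.113), and with scaling by library totals alone the log2 change was -0.17 (adjusted p = 0.181). Under that scaling the median of all genes moved to 0.151, and 76.3% of the called genes were higher, against 53.7% with TMM factors.

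Anxa7 and Anxa11, annexins with long N-terminal tails that bind the calcium sensor ALG-2, differed little. Anxa7 had 84.9, 68.4, 84.9 and 62.5 CPM in irradiated PBS libraries and 61.6, 63.8, 56.9 and 66.7 CPM in sham PBS libraries, and the groups overlapped (log2 0.27 ± 0.12 SE, edgeR adjusted p = 0.121). Anxa11 had 177.1, 183.9, 211.5 and 176.2 CPM in irradiated PBS libraries and 164.2, 166.3, 152.5 and 169.9 CPM in sham PBS libraries. Its groups did not overlap, but the log2 change of 0.20 ± 0.08 (SE) was not called (edgeR adjusted p = 0.0942), and its 95% interval was 0.03 to 0.37. Anxa7 and Anxa11 were called higher with library totals alone (adjusted p = 0.0156 and 0.00129), and Anxa11 also with DESeq2 (0.0479) and in a fit of these 2 groups only (0.0429). RefSeq lists 4 Anxa7 pseudogenes that could share reads.

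The S100 partners differed in spread. S100a11 had 38.4, 42.8, 43.1 and 40.8 CPM in irradiated PBS libraries, against 8.70, 8.52, 11.0 and 7.13 CPM in sham PBS libraries, a log2 change of 2.22 ± 0.33 (SE, 4.66-fold, edgeR adjusted p = 0.00012). S100a10 had 27.9, 43.8, 44.0 and 36.5 CPM in irradiated PBS libraries, against 6.39, 21.6, 30.3 and 7.18 CPM in sham PBS libraries. Sham replicates 2 and 3 stood well above sham replicates 1 and 4, the groups overlapped, and the log2 change of 1.21 ± 0.44 (SE) was not called (edgeR adjusted p = 0.0675, 95% interval 0.26 to 2.16). DESeq2, limma voom, library totals and a fit without robust moderation each called S100a10 higher, with adjusted p of 0.00578 to 0.0438, as did leaving out sham PBS replicate 3 (log2 1.69, adjusted p = 0.0139). In RefSeq, S100a10 and S100a11 stand on chromosome 2 with 1 non-coding entry between them.

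**Figure D1:**
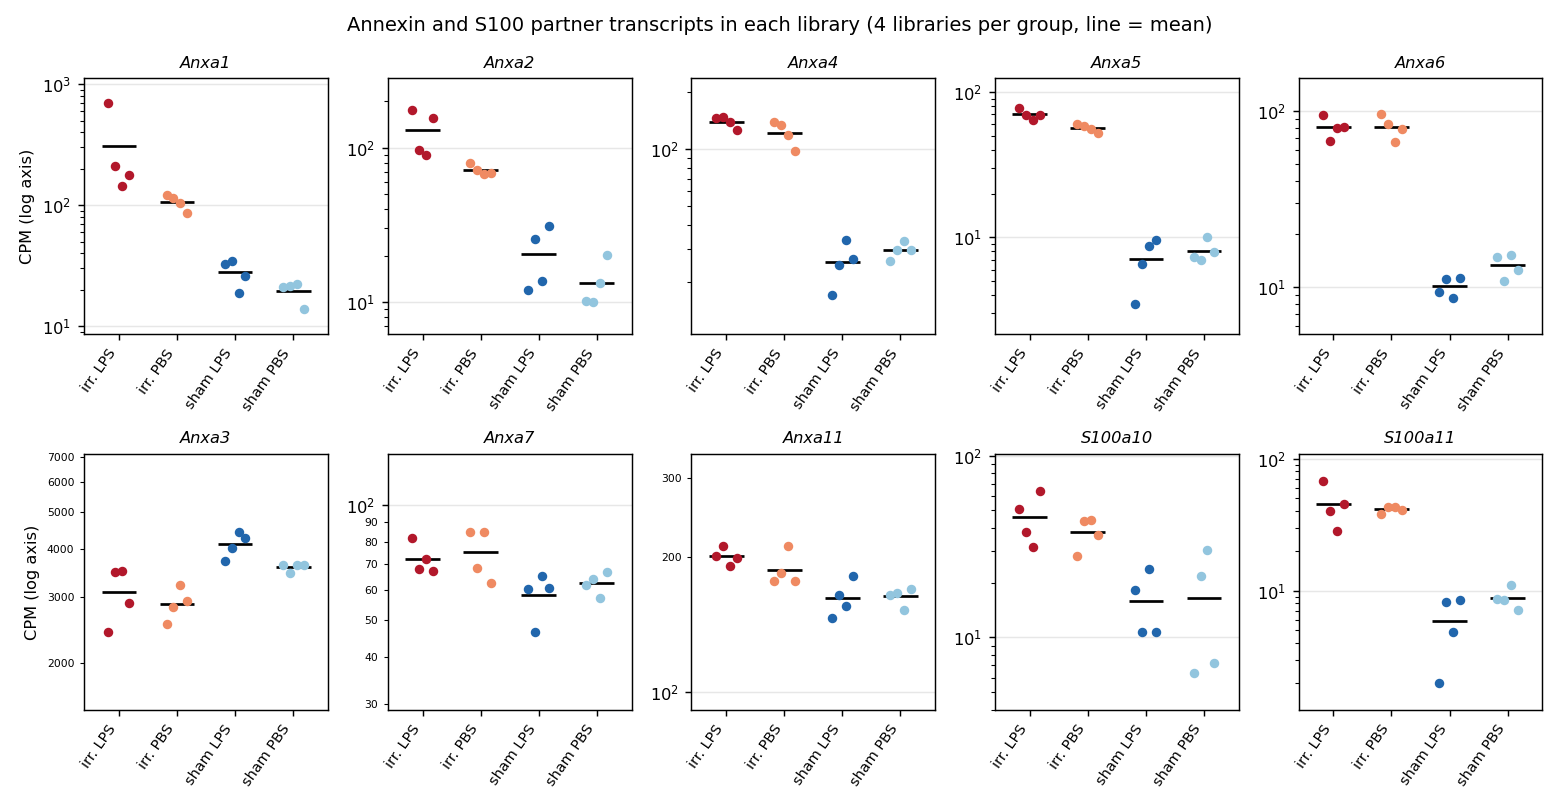
CPM (log axis) of the 10 genes in each library, by group, with irradiated (irr.) groups left of sham groups and LPS left of PBS; points are libraries and lines are means of 4. Anxa1, Anxa2, Anxa4, Anxa5, Anxa6 and S100a11 lie higher in both irradiated groups than in both sham groups. Anxa3 lies lower in irradiated than in sham libraries given the same injection, though irradiated LPS and sham PBS libraries overlap. Anxa7 and Anxa11 differ little.

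Among rats given LPS, irradiation came with the same set of large differences and with a few smaller ones called as well. In irradiated LPS against sham LPS libraries, 7 of the 9 tested genes were called higher and 1 lower, where 15.1% of all genes were called higher and 12.6% lower. For 8 of the 9 all irradiated libraries were above all sham libraries, and for Anxa3 all were below, where 15.0% and 11.6% of all genes were without overlap in those directions. The median log2 change of the 9 was 2.46, beside 0.0136 for all genes. These libraries are other than those of the PBS comparison.

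Anxa5 had 77.4, 69.8, 63.9 and 69.2 CPM in irradiated LPS libraries, against 3.46, 6.52, 8.71 and 9.64 CPM in sham LPS libraries, a log2 change of 3.30 ± 0.22 (SE, 9.86-fold, edgeR adjusted p = 7.27e-09). Anxa4 had 145.0, 147.1, 139.6 and 126.7 CPM in irradiated LPS libraries, against 17.1, 24.5, 33.4 and 26.6 CPM in sham LPS libraries (log2 2.46 ± 0.16 SE, edgeR adjusted p = 6e-09). Both genes were lowest in sham LPS replicate 1, and both kept a wide gap between the groups.

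Anxa1 had 696.2, 210.2, 144.6 and 178.7 CPM in irradiated LPS libraries, against 32.8, 34.4, 18.9 and 26.0 CPM in sham LPS libraries (log2 3.45 ± 0.45 SE, 11.0-fold, edgeR adjusted p = 5.7e-05). Irradiated LPS replicate 1 stood above the rest, and without it the log2 change was 2.67 (adjusted p = 1.09e-07). Anxa2 had 175.1, 95.8, 89.2 and 156.3 CPM in irradiated LPS libraries, against 12.0, 25.5, 13.8 and 31.0 CPM in sham LPS libraries (log2 2.65 ± 0.32 SE, edgeR adjusted p = 1.75e-05). The sham libraries of Anxa2 fell into a lower pair, replicates 1 and 3, and a higher pair, replicates 2 and 4.

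S100a11 had 67.7, 40.2, 28.2 and 45.6 CPM in irradiated LPS libraries, against 2.00, 8.18, 4.81 and 8.54 CPM in sham LPS libraries (log2 2.94 ± 0.34 SE, edgeR adjusted p = 6.39e-06). S100a10 had 50.5, 37.7, 31.5 and 63.6 CPM in irradiated LPS libraries, against 18.3, 10.7, 23.8 and 10.7 CPM in sham LPS libraries. Here the groups of S100a10 did not overlap and it was called higher (log2 1.53 ± 0.45 SE, edgeR adjusted p = 0.019). The S100a10 call was lost without irradiated LPS replicate 4, sham LPS replicate 2 or sham LPS replicate 4 (adjusted p 0.0586 to 0.0592).

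Anxa3 had 2419.2, 3487.5, 3505.6 and 2886.4 CPM in irradiated LPS libraries, against 3709.5, 4035.6, 4442.1 and 4284.1 CPM in sham LPS libraries, and was called lower (log2 -0.42 ± 0.10 SE, edgeR adjusted p = 0.00497). Anxa11 had 201.0, 210.9, 191.1 and 198.7 CPM in irradiated LPS libraries, against 146.2, 164.3, 155.3 and 180.9 CPM in sham LPS libraries, a small step that was called higher (log2 0.31 ± 0.08 SE, 1.24-fold, edgeR adjusted p = 0.00735). Anxa7 had 81.9, 68.0, 72.2 and 67.3 CPM in irradiated LPS libraries, against 60.3, 46.5, 65.2 and 60.7 CPM in sham LPS libraries. All 4 irradiated values of Anxa7 were above the sham ones, but the log2 change of 0.31 ± 0.12 (SE) was not called (edgeR adjusted p = 0.0579, 95% interval 0.06 to 0.57). It was called with library totals alone, with a stricter filter on low counts, with a replicate block and without irradiated PBS replicate 4 or sham LPS replicate 3 (adjusted p 0.0202 to 0.0485).

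**Figure D2:**
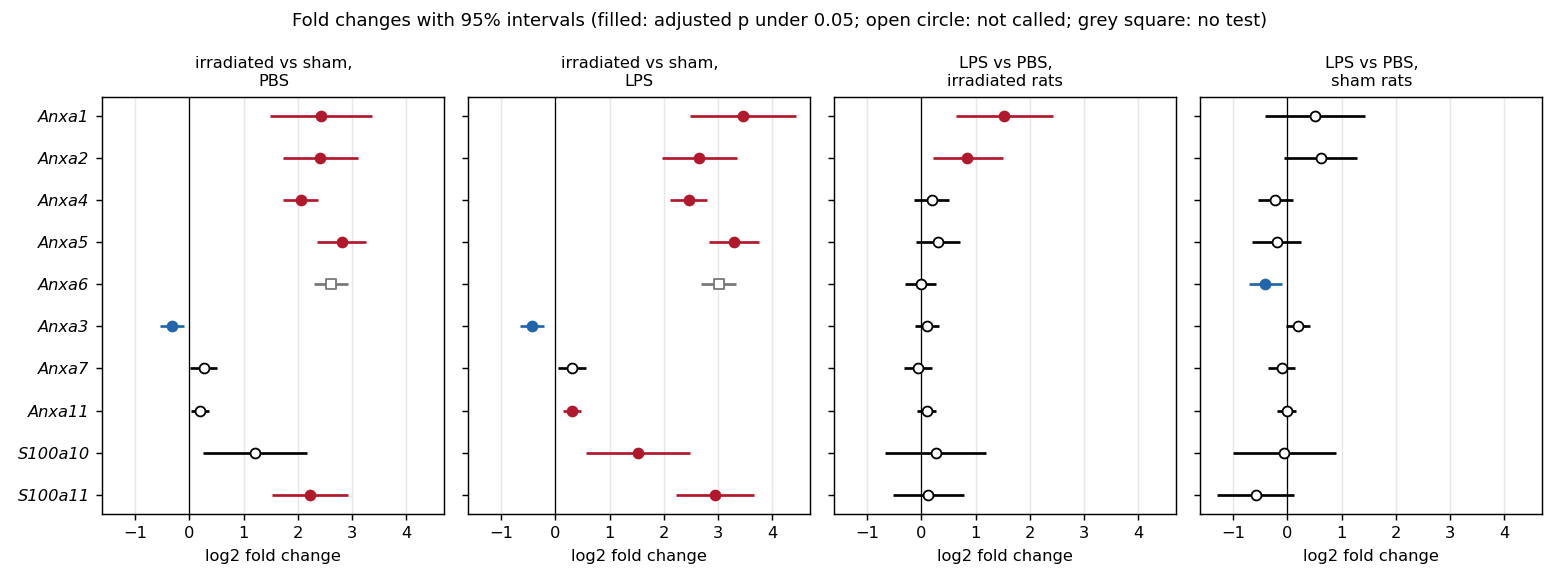
Log2 fold change (points) with 95% intervals (lines) of the 10 genes in 4 comparisons, from the edgeR fit over 16 libraries; red and blue points are called higher and lower, open circles are not called, and grey squares mark Anxa6 where it was not tested. The changes with irradiation reach 3.45, while those with LPS stay between -0.58 and 1.53.

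LPS in sham rats came with no call among the 9 genes other than Anxa6 in the edgeR fit over 16 libraries. In sham LPS against sham PBS libraries, 0 of the 9 were called in either direction by edgeR (0 at an unadjusted p under 0.05, and 0 by DESeq2 and by limma voom), where 15.2% of all genes were called higher and 14.5% lower. Their log2 changes lay between -0.58 and 0.62, with a median of -0.05 beside -0.0103 for all genes. Groups did not overlap for 1 gene of the 9, Anxa3, which was higher in every LPS library (14.6% of all genes were without overlap and higher, 15.3% lower).

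Anxa6 was at log2 -0.40 ± 0.15 (SE, edgeR adjusted p = 0.046) in sham LPS against sham PBS libraries. The sham PBS libraries of this test are among those that chose the gene, so it is left out of the count above, the groups overlapped, and the call was lost without any one of 9 libraries (irradiated LPS 3 or 4, irradiated PBS 2 or 4, sham LPS 1 or 3, sham PBS 1, 3 or 4). Anxa3 averaged 4117.8 ± 319.5 CPM in sham LPS libraries and 3584.2 ± 84.1 CPM in sham PBS libraries (SD, n = 4 each), a log2 change of 0.20 ± 0.10 (SE) that was not called (edgeR adjusted p = 0.162). Anxa3 was called higher in an edgeR fit of these 2 groups only (log2 0.21, adjusted p = 0.0167) and without both irradiated libraries numbered 1 (log2 0.20, adjusted p = 0.0438).

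Anxa2 averaged 20.5 ± 9.19 CPM in sham LPS libraries and 13.4 ± 4.75 CPM in sham PBS libraries (SD, n = 4 each), with a 95% interval of -0.06 to 1.29 for the log2 change. Anxa1 averaged 28.0 ± 7.08 CPM in sham LPS libraries and 19.7 ± 3.95 CPM in sham PBS libraries (SD, n = 4 each), with an interval of -0.40 to 1.43. S100a11 averaged 5.88 ± 3.08 CPM in sham LPS libraries and 8.85 ± 1.62 CPM in sham PBS libraries (SD, n = 4 each), with an interval of -1.29 to 0.12. None of the 3 was called.

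In the same sham libraries the glucocorticoid list, chosen because annexin A1 is known as a glucocorticoid-induced gene, had 7 of 10 tested members called higher and 1 lower (median log2 2.02), beside the 15.2% and 14.5% of all genes. The 3 with the smallest p were Fkbp5, a co-chaperone of the glucocorticoid receptor (log2 4.40 ± 0.33 SE, edgeR adjusted p = 1.11e-07), Mt2A, a metallothionein (5.30 ± 0.52, adjusted p = 8.12e-07), and Per1, a clock gene (3.74 ± 0.53, adjusted p = 8.82e-05). Anxa1 in these libraries had the interval given above and was not called (log2 0.51 ± 0.42 SE, edgeR adjusted p = 0.408).

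With LPS in irradiated rats, Anxa1 and Anxa2 were called higher, and neither call held in every alternative fit. In irradiated LPS against irradiated PBS libraries, 2 of the 9 genes other than Anxa6 (22.2%) were called higher and 0 lower. Of all genes, 17.0% were called higher, a share near that of the 9, and 14.5% lower. The median log2 change of the 9 was 0.19, beside -0.0213 for all genes. For 3 of the 9 (Anxa1, Anxa2 and Anxa5) each LPS library was above each PBS library, and 17.5% of all genes were without overlap in that direction. With library totals alone the median of all genes moved to -0.139, and 39.2% of the called genes were higher, against 54.0% with TMM factors.

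Anxa1 averaged 307.4 ± 260.6 CPM in irradiated LPS libraries and 106.2 ± 14.9 CPM in irradiated PBS libraries (SD, n = 4 each), and was called higher (log2 1.53 ± 0.42 SE, 2.89-fold, edgeR adjusted p = 0.012). The value rests in part on irradiated LPS replicate 1, at 696.2 CPM. Without it the log2 change was 0.75 and still called (adjusted p = 0.00838), but in a fit of these 2 groups only it was not (adjusted p = 0.0671).

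Irradiated LPS replicate 1 also held the most neutrophil marker RNA. The sum over 9 markers was 637.0 CPM there, 253.6 to 262.9 CPM in the other irradiated LPS libraries and 206.3 to 231.6 CPM in irradiated PBS libraries, and most of it outside that library was Csf3r, a cytokine receptor gene with 182.9 to 227.7 CPM in every irradiated library. Without Csf3r the sum of 8 markers was 444.2, 80.0, 60.7 and 53.2 CPM in irradiated LPS libraries, against 17.1, 3.88, 6.73 and 3.46 CPM in irradiated PBS libraries. In irradiated LPS replicate 1 the granule protein genes Camp, Lcn2 and Mmp8 stood at 98.4, 121.1 and 157.6 CPM, while Mpo, Elane and Ltf were under 0.5 CPM on average over the 16 libraries. With LPS in irradiated rats, 5 of 6 tested neutrophil markers were called higher and 0 lower (median log2 3.97), beside 17.0% and 14.5% of all genes. S100a9, a subunit of calprotectin and abundant in neutrophils and monocytes, had 1133.3, 177.7, 80.7 and 35.4 CPM in irradiated LPS libraries, against 63.8, 9.38, 18.2 and 8.20 CPM in irradiated PBS libraries. Its partner S100a8 had 268.8, 46.8, 23.0 and 17.1 CPM in irradiated LPS libraries, against 16.8, 2.05, 4.28 and 1.79 CPM in irradiated PBS libraries. In both irradiated groups replicate 1 held the most S100a8, S100a9 and Anxa1, and the part of neutrophil RNA in the Anxa1 difference was not tested.

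**Figure D3:**
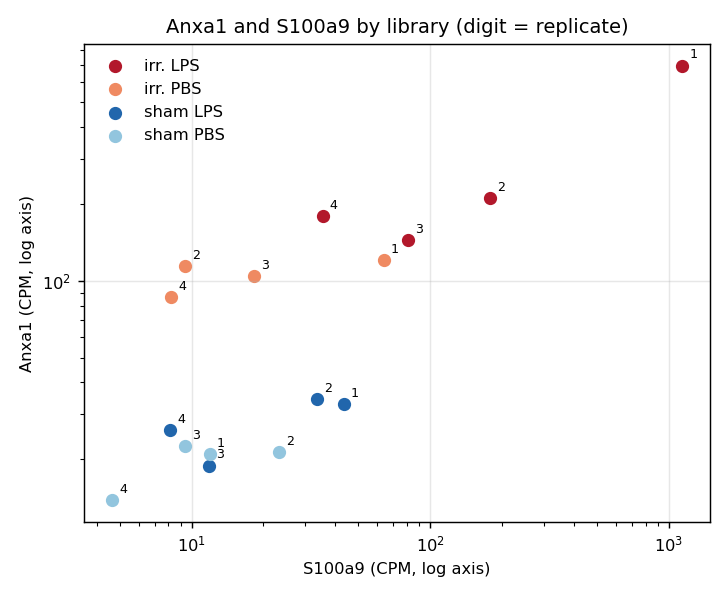
Anxa1 against S100a9 (CPM, log axes) in the 16 libraries, coloured by group and marked with the replicate number. Irradiated LPS replicate 1 stands at 1133.3 CPM of S100a9 and 696.2 CPM of Anxa1. All irradiated libraries lie above all sham libraries in Anxa1, and the part of neutrophil or other myeloid RNA in this was not tested.

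Anxa2 averaged 129.1 ± 43.0 CPM in irradiated LPS libraries and 71.5 ± 5.64 CPM in irradiated PBS libraries (SD, n = 4 each), and was called higher (log2 0.85 ± 0.30 SE, 1.80-fold, edgeR adjusted p = 0.0435). That call was lost with library totals alone, with no filter on low counts and without any one of 7 libraries (irradiated LPS 1 or 4, any irradiated PBS library, or sham PBS 3), where the log2 change stayed between 0.67 and 0.91. Anxa5 averaged 70.1 ± 5.53 CPM in irradiated LPS libraries and 56.6 ± 3.78 CPM in irradiated PBS libraries (SD, n = 4 each), which was not called (log2 0.31 ± 0.19 SE, edgeR adjusted p = 0.257) although the groups did not overlap. Limma voom (adjusted p = 0.04) and an edgeR fit of these 2 groups only (0.0301) called Anxa5 higher.

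Anxa6 averaged 81.0 ± 11.3 CPM in irradiated LPS libraries and 81.4 ± 12.2 CPM in irradiated PBS libraries (SD, n = 4 each), with a 95% interval of -0.30 to 0.28 for the log2 change. The irradiated PBS libraries are among those that chose the gene, so this interval is a description. Anxa4, Anxa7, Anxa11 and Anxa3 had log2 changes of 0.19, -0.06, 0.10 and 0.10, and no interval of these 4 reached beyond 0.51 or below -0.31. The S100 partners moved less clearly still, with S100a10 at 0.27 (interval -0.66 to 1.19) and S100a11 at 0.13 (interval -0.52 to 0.79).

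The difference between the LPS responses of irradiated and sham rats was tested as an interaction, which called 0 of the 9 tested genes by edgeR, 0 at an unadjusted p under 0.05 and 0 by DESeq2 or limma voom, where 0.610% of all genes were called higher and 0.647% lower. Anxa1 had the largest estimate, 1.02 ± 0.59 (log2, SE), with a 95% interval of -0.25 to 2.29 (edgeR adjusted p = 0.569), and without irradiated LPS replicate 1 the estimate was 0.23. For S100a11 it was 0.72 (interval -0.24 to 1.68), for Anxa5 0.50 (interval -0.11 to 1.10), for Anxa4 0.41 (interval -0.05 to 0.86) and for Anxa2 0.24 (interval -0.69 to 1.17). So the call of Anxa1 and Anxa2 under LPS in irradiated rats, and its lack in sham rats, is not shown to be a difference between the responses. Anxa3, Anxa7 and Anxa11 had narrower intervals, which lay within -0.41 and 0.40. For Anxa6 the estimate was 0.40 and not tested, and for S100a10 it was 0.32 (interval -1.01 to 1.64).

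The make-up of the annexin RNA changed with these differences. Anxa3 took 75.2% ± 8.92 of all annexin reads in irradiated LPS libraries, 80.3% ± 2.45 in irradiated PBS, 93.0% ± 0.452 in sham LPS and 92.1% ± 0.239 in sham PBS libraries (SD, n = 4 each). The lowest share, 62.2%, was in irradiated LPS replicate 1. Anxa1, Anxa2, Anxa4, Anxa5 and Anxa6 together had 517.4 to 1188.9 CPM in irradiated LPS, 382.9 to 494.9 CPM in irradiated PBS, 74.6 to 104.4 CPM in sham LPS and 78.7 to 94.1 CPM in sham PBS libraries. As Anxa6 is in that sum, it is a description with no test. Reads are not divided by transcript length, so the shares show how the mix differed between groups and not how many molecules of each annexin there were.

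**Figure D4:**
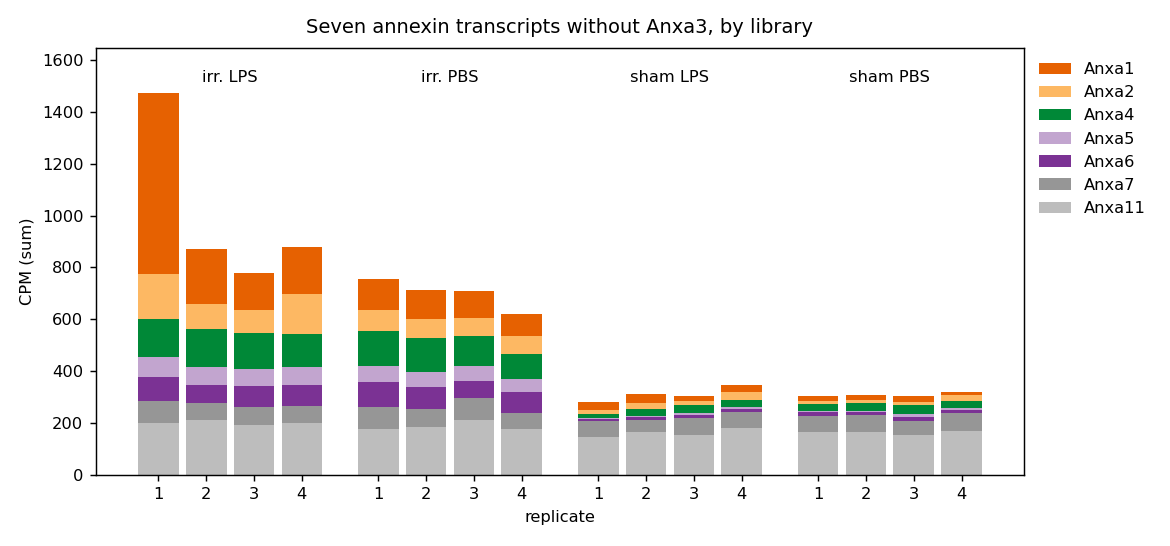
Summed CPM of 7 annexins without Anxa3 (bars, coloured by gene) in each library, with irradiated (irr.) groups left of sham groups. Bars reach 621.7 to 1471.9 CPM in irradiated and 281.1 to 346.0 CPM in sham libraries, while the heights of the grey parts (Anxa7 and Anxa11) differ much less.

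The ratio of Anxa2 to S100a10 reads varied most within the sham groups. It was 3.47, 2.54, 2.83 and 2.46 in irradiated LPS, 2.85, 1.63, 1.53 and 1.86 in irradiated PBS, 0.654, 2.39, 0.577 and 2.88 in sham LPS and 1.59, 0.461, 0.440 and 2.81 in sham PBS libraries. Within groups, the deviations of Anxa2 and S100a10 from their group means had a correlation of -0.24 over 16 libraries, although their proteins form 1 complex. Deviations of Anxa4 and Anxa5 went together (r = 0.83), as did those of Anxa5 and S100a11 (0.77) and of Anxa2 and S100a11 (0.69), while Anxa1 and Anxa3 went opposite ways (-0.76). These correlations share each library's depth and scaling and the choice of the members, and are given as descriptions. Irradiated LPS replicate 1 was above its group mean in 9 of the 10 genes, all but Anxa3. That library had the most Anxa1 (696.2 CPM) and the least Anxa3 (2419.2 CPM) of its group. The correlation of -0.76 between these genes includes it and was not computed without it.

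Over the 16 libraries, the genes whose log2 CPM was most like that of Anxa6 were Dok3, an adaptor of myeloid receptors (r = 0.989), Meiob, a meiosis gene (0.987), Gpnmb, a glycoprotein of lysosome-rich macrophages (0.985), Cd68, a lysosomal glycoprotein of macrophages (0.985), and Slamf9, a receptor of the SLAM family (0.982). Meiob was low, with group means of 1.69 CPM in irradiated LPS, 1.56 CPM in irradiated PBS, 0.00 CPM in sham LPS and 0.024 CPM in sham PBS libraries. Within groups the likeness was weaker, with correlations of deviations of 0.168 for Cd68 to 0.464 for Dok3. The difference between irradiated and sham groups, which chose Anxa6, enters the first set of correlations and not the second.

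For Anxa2 the most alike genes were Lilrb4, an inhibitory receptor of myeloid cells (r = 0.977), Plaur, the urokinase receptor (0.971), Vim, which encodes vimentin (0.969), Rpl26, a ribosomal protein gene (0.967), and Gpr171, a G protein-coupled receptor (0.966). Their deviations within groups also went with those of Anxa2, with correlations of 0.585 for Vim to 0.723 for Gpr171. Vim had group means of 225.6 CPM in irradiated LPS, 151.1 CPM in irradiated PBS, 42.9 CPM in sham LPS and 28.4 CPM in sham PBS libraries.

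The AHNAK and membrane repair list, which holds partners of the annexin A2 and S100A10 complex, had 4 of 9 tested members called higher and 1 lower in irradiated PBS against sham PBS libraries (median log2 0.55), where 11.5% of all genes were called higher and 9.91% lower. Ahnak, the giant scaffold protein held by that complex, had 34.3, 26.4, 27.9 and 21.8 CPM in irradiated PBS libraries, against 3.83, 4.93, 7.18 and 5.74 CPM in sham PBS libraries (log2 2.34 ± 0.32 SE, edgeR adjusted p = 3.67e-05). Myof, which encodes the membrane repair protein myoferlin, averaged 15.7 ± 3.83 CPM in irradiated PBS libraries and 2.18 ± 0.665 CPM in sham PBS libraries (SD, n = 4 each; log2 2.84 ± 0.33 SE, edgeR adjusted p = 6.86e-06). The calcium-activated protease gene Capn2 averaged 52.9 ± 9.27 CPM in irradiated PBS libraries and 20.1 ± 4.28 CPM in sham PBS libraries (SD, n = 4 each; log2 1.39 ± 0.17 SE, edgeR adjusted p = 1.02e-05). The groups of these 3 genes did not overlap. With LPS, 5 of 9 were called higher and 2 lower in irradiated against sham libraries (15.1% and 12.6% of all genes), with Myof (log2 3.21), Capn1 (1.78) and Capn2 (1.17) first by p.

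The plasminogen list, for the protease system that annexin A2 and S100A10 hold at the surface, had 2 of 8 tested members called higher and 0 lower in irradiated PBS against sham PBS libraries (median log2 0.76), beside 11.5% and 9.91% of all genes. Plau, the plasminogen activator urokinase, had 391.3, 280.5, 222.8 and 174.2 CPM in irradiated PBS libraries, against 27.1, 30.8, 16.4 and 27.4 CPM in sham PBS libraries (log2 3.39 ± 0.25 SE, edgeR adjusted p = 1.31e-07). Its receptor Plaur had 59.3, 56.1, 46.3 and 41.9 CPM in irradiated PBS libraries, against 2.68, 1.25, 3.18 and 2.62 CPM in sham PBS libraries (log2 4.38 ± 0.34 SE, edgeR adjusted p = 2.31e-07). All irradiated libraries stood far above all sham libraries in both genes.

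Of the other S100 genes, 2 of 8 tested were called higher and 0 lower with irradiation under PBS (median log2 1.01), beside 11.5% and 9.91% of all genes. With irradiation under LPS, 4 of 8 were called higher and 0 lower, beside 15.1% and 12.6%. S100a4 and S100a6, whose proteins bind annexin A2 among other targets, were the 2 called under PBS, at log2 1.02 ± 0.23 and 1.62 ± 0.46 (SE, edgeR adjusted p = 0.00389 and 0.019). The S100a6 call was lost without irradiated PBS replicate 4 or sham PBS replicate 1 or 2 (adjusted p up to 0.0578). S100a8 and S100a9 were called higher with LPS in irradiated rats (log2 3.87 ± 1.05 and 3.85 ± 1.14 SE, edgeR adjusted p = 0.013 and 0.0216). Without irradiated LPS replicate 1 the log2 changes were lower, 2.24 for S100a8 and 1.99 for S100a9, and S100a9 was no longer called (adjusted p = 0.107). S100a9 also lost its call without irradiated PBS replicate 2, 3 or 4 (adjusted p up to 0.0605), and both genes lost it in a fit of the 2 groups only (0.0662 and 0.0852). Without irradiated LPS replicate 1, irradiation under LPS no longer called S100a8 (adjusted p = 0.108) or S100a9 (0.116), and both calls were also lost without sham LPS replicate 3 or 4, that of S100a8 without sham LPS replicate 2 as well (adjusted p up to 0.0636).

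**Figure D5:**
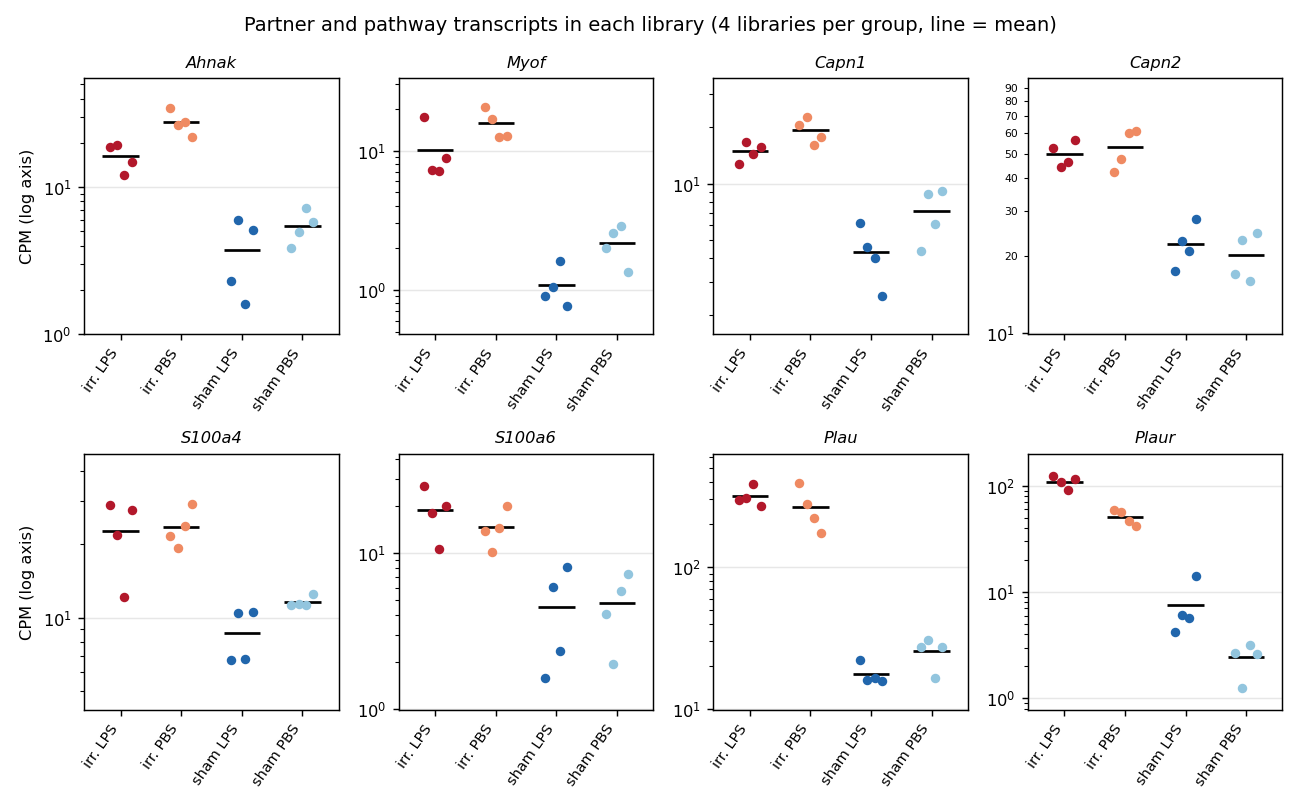
CPM (log axis) of 8 partner and pathway genes in each library, by group, with irradiated (irr.) groups left of sham groups and LPS left of PBS; points are libraries and lines are means of 4. Irradiated means exceed sham means in all 8 panels, which follows from the choice of genes, as all 8 were called higher with irradiation. Members of the same lists that were called lower or not called are not shown. The largest fold difference under PBS is that of Plaur (50.9 CPM in irradiated PBS against 2.43 CPM in sham PBS libraries). Under LPS it is that of Plau (log2 4.16, against 3.86 for Plaur).

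Of the formyl peptide receptors, the family that annexin A1 acts on, Fpr2 and Fpr3 were tested, and Fpr3 was called higher with irradiation under PBS, at 5.19 ± 0.515 CPM in irradiated PBS libraries and 0.661 ± 0.701 CPM in sham PBS libraries (SD, n = 4 each; log2 3.01 ± 0.78 SE, edgeR adjusted p = 0.0108). The glucocorticoid list under irradiation with PBS had 2 of 10 called higher and 1 lower (median log2 0.80), which is near the 11.5% and 9.91% of all genes. With LPS in irradiated rats it had 5 of 10 higher and 2 lower, beside 17.0% and 14.5% of all genes, with Mt2A (log2 6.33), Fkbp5 (3.94) and the receptor gene Nr3c1 (-0.72) first by p. Of 14 tested eicosanoid synthesis genes, among them the phospholipase A2 family that annexin A1 is known to inhibit, 1 was called higher and 3 lower with irradiation under PBS (median log2 -0.02), beside 11.5% and 9.91% of all genes. The first 3 by p were the cyclooxygenase gene Ptgs1 (log2 -1.11 ± 0.10 SE, edgeR adjusted p = 4.45e-07), the leukotriene A4 hydrolase gene Lta4h (0.63 ± 0.12, adjusted p = 0.000684) and the leukotriene C4 synthase gene Ltc4s (-0.51 ± 0.13, adjusted p = 0.00606).

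The list around annexin A6 and cholesterol of late endosomes had 0 of 9 tested members called higher and 4 called lower in irradiated PBS against sham PBS libraries (median log2 -0.08), beside 11.5% and 9.91% of all genes. Lamp2, a lysosomal membrane protein, fell to 2084.2 ± 243.7 CPM in irradiated PBS libraries, against 3579.8 ± 105.3 CPM in sham PBS libraries (SD, n = 4 each; log2 -0.78 ± 0.11 SE, edgeR adjusted p = 3.04e-05). Npc1, the cholesterol exporter of late endosomes, and Osbpl1a, an oxysterol-binding protein, were lower too (log2 -1.06 ± 0.18 and -0.51 ± 0.11 SE, edgeR adjusted p = 0.000262 and 0.00348).

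Genes that expose phosphatidylserine, the lipid bound by annexins, or return it had 2 of 8 tested called higher and 0 lower with irradiation under PBS (median log2 0.09), where 11.5% of all genes were called higher and 9.91% lower. These were Atp8b4, a P4-type ATPase (log2 3.49 ± 0.34 SE, edgeR adjusted p = 1.16e-06), and Ano6, a phosphatidylserine scramblase (0.87 ± 0.25, adjusted p = 0.0156, and 0.0548 without sham PBS replicate 3). Of 13 tested phosphatidylserine receptors and bridging proteins, 4 were called higher and 4 lower in the same comparison (median log2 0.03). That median holds large differences in both directions. Axl had 552.1, 578.6, 389.3 and 358.6 CPM in irradiated PBS libraries, against 58.8, 74.9, 48.7 and 52.3 CPM in sham PBS libraries. Mertk went the other way, with 440.9, 472.3, 561.5 and 457.7 CPM against 915.9, 1124.6, 1049.8 and 906.2 CPM. Of 14 tested genes of the ALG-2, sorcin and ESCRT list, around annexin A7 and annexin A11, 2 were called higher, a share near that of all genes, and 0 lower (median log2 -0.05), and these were Chmp3 (0.32 ± 0.09, edgeR adjusted p = 0.0207) and Gca (0.95 ± 0.28, adjusted p = 0.0219). The Gca call was lost without irradiated PBS replicate 1 or sham PBS replicate 1 or 3 (adjusted p up to 0.0908), and the Chmp3 call without irradiated PBS replicate 1 or 3 or sham PBS replicate 2, 3 or 4 (adjusted p up to 0.0731). Of 12 tested genes of cortical actin and spectrin, 5 were called higher and 1 lower (median log2 0.34), led by Flna (1.20 ± 0.19 SE, edgeR adjusted p = 0.000122), Ezr (0.71 ± 0.13, adjusted p = 0.000535) and Vcl (-0.75 ± 0.15, adjusted p = 0.00157). Of the other annexins, Anxa8, Anxa10 and Anxa13 had group means of at most 0.0622 CPM, and Anxa9, with group means of 0.200 to 0.663 CPM, was tested and not called in any of the 5 comparisons.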

How the data were processed

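The authors deposited raw read counts per Ensembl gene for each of the 16 libraries. HTSeq 2.0.2, fastp 0.23.2 and FastQC 0.11.9 appear in the submitters' processing notes, as does genome build mRatBN7.2, without their roles. Per the labels' protocols, RNA came from the RNeasy Micro kit and libraries from the NEBNext Low Input kit, sequenced on a NovaSeq6000. Aligner, annotation release and strand setting: not given in the sources used here. A deposited table of counts per symbol held the same counts as the library files (0 cells differed for symbols on 1 gene ID) and served as an alternative.

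Counts were fitted in R 4.3.3 by a robust quasi-likelihood model of edgeR 4.0.16 with 1 coefficient per group over the 16 libraries, after filterByExpr and TMM scaling, which kept 13608 of 30560 genes. The common biological coefficient of variation was 0.289, the SE is the log2 change over the root of F, and log2 CPM used a prior count of 2. Alternatives used DESeq2 1.42.0, limma 3.58.1, other scalings and filters, and left out libraries. The fit was tested on simulated data. The members and gene lists were chosen with earlier results of these data known. Most genes outside the 10 were named by a rule, the 3 with the smallest p of a list where called and the 5 most like Anxa6 or Anxa2. The rule was not applied to every list in every comparison. Cell type markers, Axl, Mertk and genes named as low or not called fall outside it. Depth was 14309458 to 62745496 counts per library, and intervals are at 95%.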

Additional observations from a re-analysis of the deposited data

Results flagged for a closer look

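Among 188 groups of 4 libraries (47 of the named genes in 4 groups), 15 held a library whose gap to its nearest neighbour took most of the group's range, past Dixon's 95% critical value for 4 samples. Chance alone marks about 1 in 20 groups. Among the annexins, Anxa1 was highest in irradiated LPS replicate 1, at 696.2 CPM, with the next library at 210.2 CPM. Anxa3 was lowest in sham PBS replicate 2, at 3458.1 CPM, with the next at 3623.7 CPM, a small step in a tight group. S100a8 and S100a9 stood apart in irradiated LPS replicate 1 as well, at 268.8 CPM and 1133.3 CPM, and S100a8 in irradiated PBS replicate 1, at 16.8 CPM. The same irradiated LPS library held the most Cd68, at 594.0 CPM, with the next at 496.5 CPM.

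Genes with a library above the rest of its group were Plau in sham LPS (22.2 CPM, next 16.6), S100a4 in sham PBS (12.5 CPM, next 11.4), Chmp3 in sham PBS (78.6 CPM, next 71.7), Mt2A in irradiated PBS (1.06 CPM, next 0.24) and Lta4h in irradiated PBS (239.0 CPM, next 200.6). Those with a library below the rest were Fkbp5 in sham PBS (2.19 CPM, next 4.06), Nr3c1 in sham PBS (77.1 CPM, next 102.9), Cd68 in sham PBS (112.6 CPM, next 123.5) and Rpl26 in irradiated PBS (168.1 CPM, next 170.1).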

How the results depend on the processing

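The calls of Anxa1, Anxa2, Anxa4, Anxa5 and S100a11 with irradiation, under PBS and under LPS, held in each of the 27 alternatives run. Counts of the 10 genes called moved as follows. With LPS in sham rats, the count called higher was 0, and 1 (Anxa3) in the fit of the 2 groups alone and without both irradiated libraries numbered 1. The count called lower was 1 (Anxa6), and 0 with DESeq2's size factors, with limma voom and in the fit of the 2 groups alone, and 0 to 1 when libraries were left out 1 at a time. The sham PBS libraries of that test are among those that chose Anxa6, so its call is given as a description only. With LPS in irradiated rats, the count called higher was 2, and 1 with library totals alone, with no filter on low counts and without both irradiated libraries numbered 1. It was 1 to 2 when libraries were left out 1 at a time, and at most 3 in any other alternative. With irradiation under PBS, library totals alone gave 8 called higher and 0 lower, against 5 and 1, and leaving out 1 library gave 0 to 1 lower. Of all 13608 genes, library totals alone called 2331 higher and 725 lower in that comparison, against 1566 and 1348 with TMM factors. With LPS in irradiated rats it called 1784 higher and 2768 lower, against 2309 and 1968. The member counts thus moved along with those of all genes. Irradiation under LPS had 7 called higher, 6 to 8 when 1 library was left out and 7 to 8 in the other alternatives, and 1 lower throughout.

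Changes of direction touched small values that were not called. S100a10 with LPS in sham rats (-0.05) was 0.10 with limma voom, 0.04 with the replicate block and -0.32 to 0.43 when libraries were left out. With LPS in irradiated rats and library totals alone, Anxa3 and Anxa11 were both at -0.02, and S100a11 was at -0.15 without both libraries numbered 1. The difference of the LPS responses of Anxa7 was -0.04 with library totals alone. Leaving out 1 library gave ranges that crossed 0 with LPS in sham rats for Anxa5 (-0.38 to 0.03) and Anxa11 (-0.07 to 0.03), with LPS in irradiated rats for Anxa6 (-0.09 to 0.08), Anxa7 (-0.14 to 0.01) and S100a11 (-0.12 to 0.31), and in the difference of responses for Anxa2 (-0.03 to 0.50), Anxa7 (-0.05 to 0.11) and S100a10 (-0.16 to 0.58). The cause of these changes was not tested.

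Replicate numbers were not used as pairs. Deviations of same-numbered libraries had r over 0.1 in 10 of 24 pairs, with a median of 0.0895 and a highest of 0.405. Other-numbered pairs had a median of -0.03. A fit with the replicate block changed no count of called members by over 1.5 times, and it called Anxa7 higher with irradiation under LPS (0.32, adjusted p = 0.045). Over all genes, the difference of LPS responses called 83 genes higher and 88 lower, against 86 and 135 with the replicate block and 177 and 241 with DESeq2. Low counts limit the sham values of S100a11 and Anxa5, at 33 and 57 reads in the lowest library.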
